A study of Drosophila melanogaster with 9 samples.

Results

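The meiotic region of the fly testis was set against the mitotic and the post-meiotic region, and genes were sought that had their highest or their lowest expression intensity in the middle of the 3. RNA came from wild-type Drosophila melanogaster males of the TEMPE T strain, collected as virgins and kept at room temperature to an age of 6 to 10 days. No mutation, transgene or drug was involved, and all groups shared the strain and the age range. The apical tip served as the mitotic sample, the middle of the testis as the meiotic sample and the basal end as the post-meiotic sample, with the seminal vesicles removed. Each of 3 biological replicates per region drew on 250 to 500 testes, and each gave 1 Affymetrix Drosophila Genome 2.0 array, 9 arrays in all. A region was enriched for its phase and was not pure, since somatic cells and germ cells of the phase before or after were present in each. The apical and distal samples were detached pieces of testis, whereas spermatocytes were squeezed from the middle stretch with a pin, out of the sheath. In such bulk samples, fewer cells of a type and less RNA per cell cannot be told apart.

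In the fly testis, germline stem cells at the tip divide to give cysts of spermatogonia that stay joined by cytoplasmic bridges. The cysts then become primary spermatocytes, which grow for days, transcribe a large set of testis-only genes under the control of testis forms of general transcription factors and of a testis complex related to the Myb complex, and store many of the messages for later use. After the meiotic divisions the mitochondria of each spermatid fuse, the axoneme elongates, and the histones are replaced, with little new transcription. Somatic cyst cells wrap each cyst, and a sheath of muscle and pigment cells on a basement membrane encloses the organ.

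A probe set is the group of array probes that reports a transcript. Values are log2 hybridization intensities, so a difference of 1 is a doubling of intensity. Of 18952 probe sets, 183 controls were set aside and 18769 were tested, of which 13647 carried 1 gene symbol, 402 several and 4720 none. In a fit by limma over all 9 arrays, 4828 probe sets (25.7% of those tested) were higher in meiosis than the average of mitosis and post-meiosis, and 3981 (21.2%) were lower, each at a Benjamini-Hochberg adjusted p under 0.05. That contrast also picks up genes that change along the whole testis. A peak was therefore called only where meiosis was past the same threshold above mitosis and above post-meiosis, and a trough only where it was below both. The size of a peak or trough is the smaller of its 2 differences, and is written as negative where a trough of a single gene is given. There were 1538 peaks (8.19% of the probe sets tested), from 1307 named genes, and 1587 troughs (8.46%), from 1289 named genes. With each array centred on its own median, the same tests gave 5901 higher and 3024 lower, with 2048 peaks and 1292 troughs.

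Fewer than 4 in 10 of the probe sets past the contrast had their extreme in the middle region. Of the 4828 that were higher, 31.9% were peaks, 24.5% were lower than in mitosis and higher than in post-meiosis, 18.8% did not pass the test against mitosis, 14.2% did not pass the test against post-meiosis, and 10.6% were higher than in mitosis and lower than in post-meiosis. Of the 3981 that were lower, 39.9% were troughs, and a further 29.3% were lower than in post-meiosis without passing the test against mitosis. The 3 meiotic arrays lay above the other 6 for 1761 probe sets (9.38%) and below them for 1842 (9.81%), and they did so for 1485 of the 1538 peaks and 1534 of the 1587 troughs. Peaks were mostly small. Their median size was 0.59, with 301 of at least 1 and 12 of at least 2. Troughs ran deeper, with a median size of 0.72, 533 of at least 1 and 93 of at least 2. The deepest trough was 4.15 and the largest peak 2.29.

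**Figure D1:**
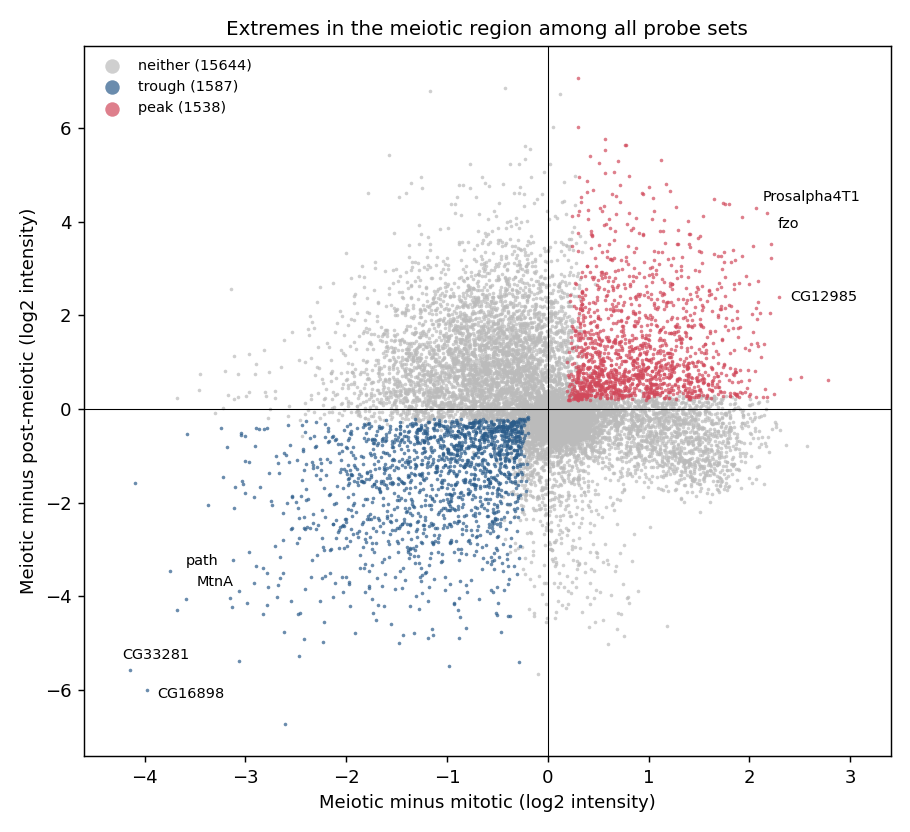
Difference of meiosis from mitosis (horizontal axis) and from post-meiosis (vertical axis), both in log2 intensity, for each of the 18769 probe sets, as means of 3 arrays a region. The 1538 peaks (red) lie at the upper right and the 1587 troughs (blue) at the lower left, and the troughs extend to larger differences, as far as CG33281 and CG16898.

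Mitosis lay between the other regions in the medians of both kinds of extreme. Among peaks, the mitotic mean was above the post-meiotic mean in 905 (58.8%), against 6562 of all probe sets (35%). Among troughs it was so in 626 (39.4%). The median level of peak probe sets was 8.53, 9.57 and 7.71 in the mitotic, meiotic and post-meiotic samples, and that of trough probe sets was 7.71, 6.50 and 8.22. Dim probe sets, with a mean under 6, made up 12.7% of peaks and 14.9% of troughs against 40.7% of all. At the edge of the threshold, Las counted as a peak with a size of 0.21 and a weaker adjusted p of 0.0498, and CG43136 just missed it with 0.24 and 0.0504. CG18249 counted as a trough (-0.33, 0.0498) and galene did not (-0.18, 0.0502). Of the 1094 genes with over 1 probe set, 143 had a peak in at least 1 and 32 in every one, 229 had a trough in at least 1 and 37 in every one, and 14 had a peak in one probe set and a trough in another.

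The gene with the largest peak was CG12985 on the X, for which the annotation gives no name. Its log2 intensity was 5.86, 5.94 and 6.07 on the mitotic arrays, 8.45, 8.22 and 8.08 on the meiotic arrays and 5.72, 5.99 and 5.88 on the post-meiotic arrays. Both outer regions sat at the same low level, and every meiotic array stood clear of them. The rise was 2.29 (SE 0.11) from mitosis and 2.39 (SE 0.11) over post-meiosis, with adjusted p of 5.28e-09 and 5.04e-10. CG14659 on arm 3R, also unnamed, was 7.28, 7.28 and 7.27 on the mitotic arrays, 9.64, 9.48 and 9.35 on the meiotic and 6.09, 5.77 and 6.01 on the post-meiotic, a peak of 2.22. Its 3 levels were all distinct, with mitosis between the others.

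The mitofusin fzo (CG4568, arm 3R), which joins the mitochondria of early spermatids into the nebenkern, had one of the tallest peaks with a known role. It read 9.31, 9.32 and 9.33 on the mitotic arrays, 11.58, 11.52 and 11.38 on the meiotic and 7.16, 7.53 and 7.24 on the post-meiotic. No arrays of different regions overlapped. Meiosis was 4.51-fold above mitosis and 18.1-fold above post-meiosis (adjusted p = 4.78e-09 and 2.86e-12). The other mitofusin, Marf on the X, which acts throughout the body, went the opposite way, with 8.81, 9.05 and 8.95 on the mitotic arrays, 7.81, 8.14 and 8.35 on the meiotic and 8.68, 8.64 and 8.72 on the post-meiotic. This was a trough of -0.58 (adjusted p of its weaker difference 0.000955), with all meiotic arrays below all others. Across the 7 genes measured for mitochondrial fusion and the nebenkern, 2 had a peak and 1 a trough, 4 were higher and 2 lower than the average of the outer regions, and the median contrast of 0.23 became -0.06 with cyclic loess normalization. The second peak was milt, an adaptor between mitochondria and kinesin, at 0.70 in its brightest probe set. Another of its probe sets had a trough with a contrast of -1.43, so the gene has no single direction here.

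HP1e (arm 3R), a testis paralog of heterochromatin protein 1, rose from 7.39, 7.36 and 7.54 on the mitotic arrays to 9.71, 9.65 and 9.55 on the meiotic ones, and was at 7.33, 8.01 and 7.43 in post-meiosis. The outer regions overlapped, all meiotic arrays lay above them, and the meiotic mean exceeded both other means by 2.04 or more. t-Grip128 (arm 3L), a testis form of a gamma-tubulin ring component, showed the same form, with 7.48, 7.75 and 7.88, then 9.81, 9.92 and 9.60, then 7.59, 8.11 and 7.85, a peak of 1.93. nxf4, of the nuclear export factor family, peaked by 1.87, the UDP-glycosyltransferase Ugt303B2 by 1.85 and the neuroligin gene Nlg2 by 1.77. Of these, Nlg2 has 2 more probe sets that were neither peak nor trough. Flad2, CG14839, CG10700, CG31068, CG8260 and jtb, whose roles are left out here, had sizes between 1.99 and 2.09. Next to CG12985 and CG8260, the X-linked genes with the largest peaks were B-H2, a homeobox gene, with 1.46 and PPYR1 with 1.40. B-H2 read 7.66, 7.71 and 7.66 on the mitotic arrays, 9.26, 9.07 and 9.06 on the meiotic and 6.94, 6.83 and 7.09 on the post-meiotic, without overlap. Under 320 recomputed values for the 20 peaks named by size, none lost its call or turned. These peaks were picked as large and free of overlap in the same arrays, so the refits were not an independent check.

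**Figure D2:**
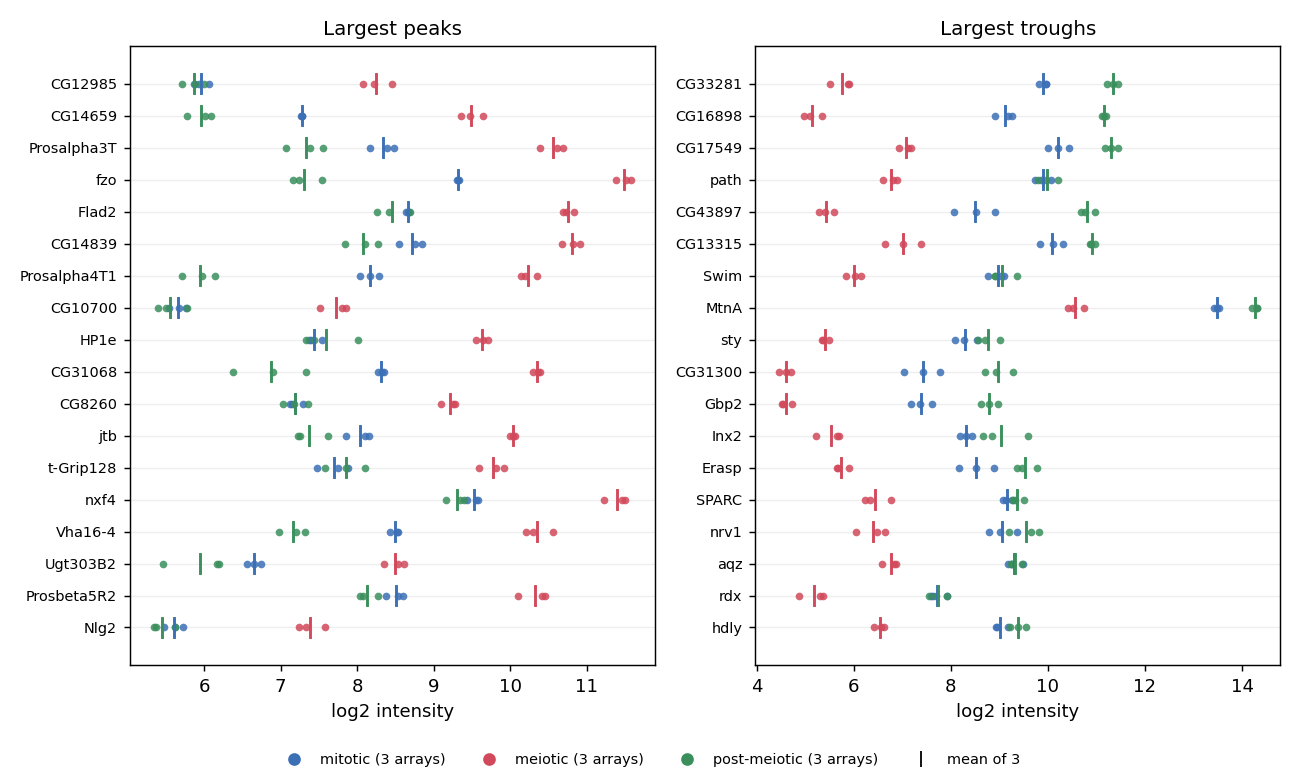
Log2 intensity on each array (points) and mean of the 3 arrays of a region (vertical bars) for 18 peaks (left) and 18 troughs (right). Each panel holds the 12 largest extremes with a name and the 6 largest with a CG number, ordered by size from the top. In the left panel the meiotic points lie to the right of all others, and in the right panel to the left. This follows from the choice of genes, which required no overlap of the 3 meiotic arrays with the other 6.

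In the proteasome and the vacuolar ATPase, the peaks lay in copies of subunits, and whether these are specific to the testis was not measured. The proteasome, the protease complex that degrades ubiquitin-tagged proteins, has in Drosophila further copies of some subunits, several of them used in the male germline. Copies were taken by name alone, as symbols ending in T or R, with or without a number, and were not limited to the core. Of 40 proteasome genes measured, 6 had a peak and none a trough, and all 6 peaks were such copies. Over all probe sets tested, 24.3% were higher and 26.3% lower in meiosis than in mitosis, and 27.8% were higher and 37.8% lower than in post-meiosis. Among the 14 copies, 12 were higher in meiosis than in mitosis, 1 was lower and 1 was not past the threshold (median difference 1.15), and 8 were higher than in post-meiosis. Among the other 26 subunits, none was higher in meiosis than in mitosis, 24 were lower and 2 did not pass, with a median of -0.63, and 25 were higher than in post-meiosis. This family and the next were taken up after their values had been seen.

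The alpha subunit copy Prosalpha3T (arm 3R) read 8.16, 8.48 and 8.38 on the mitotic arrays, 10.61, 10.68 and 10.38 on the meiotic and 7.07, 7.55 and 7.39 on the post-meiotic, a peak of 2.22 (4.65-fold). Prosalpha4T1 (arm 3R) read 8.17, 8.04 and 8.29, then 10.34, 10.20 and 10.14, then 5.98, 6.15 and 5.71, a peak of 2.06. In both genes the 3 regions were fully apart, with post-meiosis lowest. The beta subunit copies Prosbeta5R2, Prosbeta4R1 and Prosbeta2R2 peaked by 1.82, 1.45 and 0.94. The remaining one, Prosalpha6T, had a peak of only 0.22 that did not pass with cyclic loess or without any one of 4 arrays (meiotic replicate 1, meiotic replicate 2, post-meiotic replicate 1 or post-meiotic replicate 3), where sizes were 0.00 and 0.17 to 0.24. The subunit from which Prosalpha4T1 was copied, Prosalpha4 on the X, fell by 1.75 from mitosis and was 0.82 above post-meiosis, so it declined along the testis.

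The vacuolar ATPase is a proton pump that acidifies lysosomes and other compartments, and several of its subunits have extra copies in the fly genome. Of 31 genes measured, 9 had a peak and 8 a trough, none of the 17 on the X. The extremes separated paralogs of one subunit. Vha16-1 (arm 2R), the broadly used form of the proteolipid subunit, was 12.22, 12.46 and 12.42 on the mitotic arrays, 10.99, 11.07 and 11.04 on the meiotic and 12.05, 11.84 and 11.86 on the post-meiotic. Its meiotic arrays were below all others, a trough of -0.88 (adjusted p of the weaker difference 1.87e-06). The 4 other Vha16 genes all had peaks. Vha16-4 (arm 2R) was 8.52, 8.43 and 8.53, then 10.55, 10.30 and 10.21, then 7.20, 7.32 and 6.98, a peak of 1.86. Vha16-2 (arm 3L) peaked by 1.68 and Vha16-5 (arm 2L) by 0.66, the latter with a difference of 5.07 from post-meiosis. The peak of Vha16-3 was 0.39, and its call was lost without mitotic replicate 2, mitotic replicate 3, meiotic replicate 1 or meiotic replicate 3 (0.37 to 0.39).

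Other subunits of the pump differed between paralogs in several ways. The second copies VhaPPA1-2, VhaAC39-2 and Vha14-2 peaked by 1.58, 0.68 and 0.70, whereas the first copies of these 3 subunits had neither extreme. For VhaM9.7, the form b had a trough of -1.02 and the form a a peak of 0.47, the latter at 0.01 with cyclic loess. Vha100-3 had a small peak that was also lost there, and Vha100-1 and Vha100-2 had troughs of -0.94 and -0.63. The deepest troughs of the family were in subunits of the soluble part of the pump. Vha55 (arm 3R) read 9.7, 9.75 and 9.65 on the mitotic arrays, 7.79, 8.02 and 8.0 on the meiotic and 10.84, 10.59 and 10.59 on the post-meiotic, a trough of -1.76. Vha36-1 and Vha44 had troughs of -1.47 and -1.35. VhaAC45, not counted in that part, had the shallowest trough of the family, -0.52. Over the whole family the median contrast was 0.23, beside a median of -0.03 over all probe sets.

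**Figure D3:**
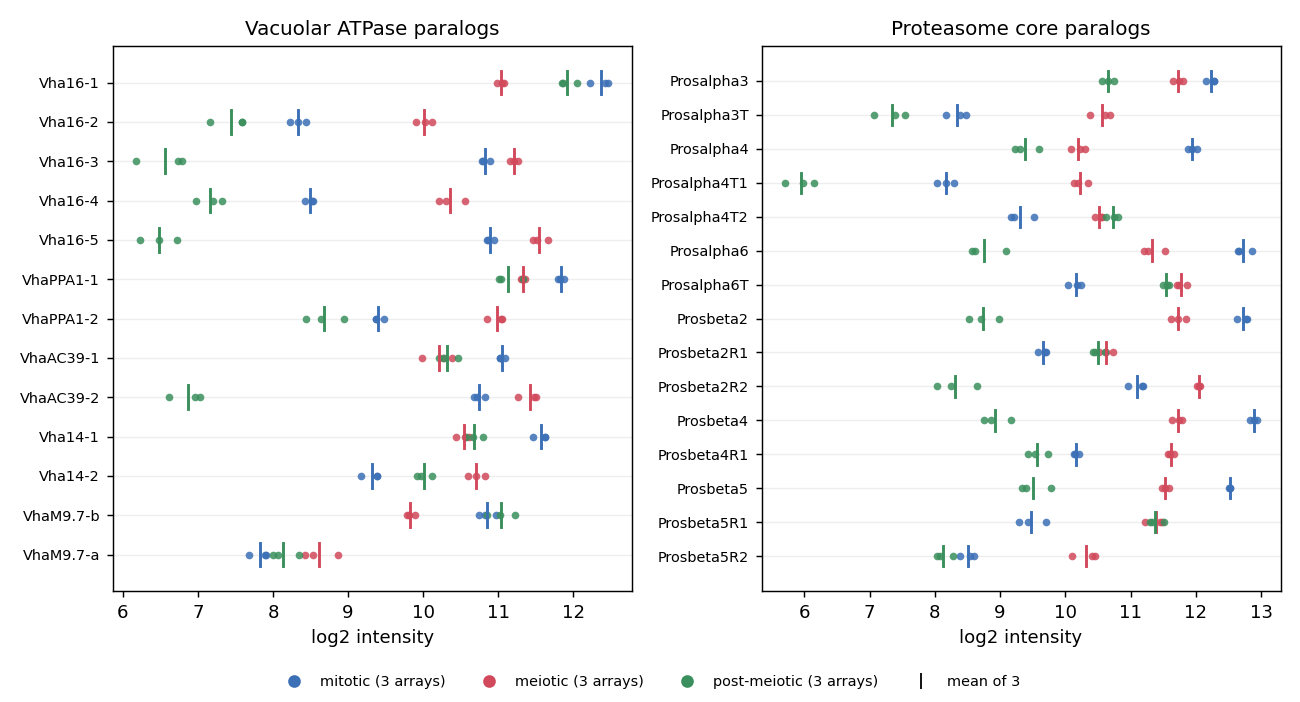
Log2 intensity on each array (points, 3 a region) and region means (vertical bars) for paralogs of vacuolar ATPase subunits (left) and proteasome core subunits (right). Meiotic points are lowest for Vha16-1 and VhaM9.7-b and highest for Vha16-2 to Vha16-5, and the proteasome copies ending in T or R move to the right in meiosis where the subunits without such an ending move to the left from mitosis. Intensities of different probe sets are not comparable as amounts of RNA.

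Retrogenes, copies made by reverse transcription of a parent's message, were followed in the 91 pairs of parent and retrogene that the study had taken from an earlier survey of the genome. Peaks were found in 21 of 91 retrogenes (23.1%) and in 1 of 88 parent probe sets (1.14%). Troughs were found in 5 retrogenes (5.49%) and 23 parents (26.1%). Over all probe sets tested, 8.19% had a peak and 8.46% a trough. The median contrast was 0.35 for retrogenes and -0.11 for parents. Of the retrogenes, 49 were higher and 10 lower than the average of the outer regions, beside 25.7% and 21.2% of all probe sets. For the 27 pairs in which the copy moved from the X to an autosome, 6 retrogenes (22.2%) had a peak and 5 parents (18.5%) a trough. For the 52 pairs between autosomes, 12 retrogenes (23.1%) had a peak and 16 of 51 parents (31.4%) a trough. Troughs of parents were thus not limited to the X. Shares were described and not tested, and several retrogenes are the proteasome and pump copies above.

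In 5 pairs the parent had a trough and the retrogene a peak. The parent cathD (arm 2R), the lysosomal protease cathepsin D, read 11.72, 11.67 and 11.65 on the mitotic arrays, 10.67, 10.60 and 10.68 on the meiotic and 11.90, 11.68 and 11.65 on the post-meiotic, a trough of -1.03. Its copy CG10104 (arm 2R) read 7.87, 7.90 and 8.0, then 9.52, 9.84 and 9.68, then 4.86, 5.79 and 5.29, a peak of 1.76. Meiotic arrays were the lowest for the parent and the highest for the copy, without overlap in either. Vha16-1 with Vha16-4 and with Vha16-2 made 2 more such pairs. CG10748, with a peak of 0.43, is paired with a parent probe set at -0.94 to which the annotation gives no single symbol. In the last pair, alpha-Man-Ia on the X, a mannosidase of glycan processing, had a trough of -2.01, with 6.88, 6.97 and 6.96 on the mitotic arrays, 4.80, 5.12 and 4.85 on the meiotic and 7.62, 7.02 and 7.21 on the post-meiotic. Its copy alpha-Man-Ic had a peak of 0.26 whose arrays overlapped and whose call was lost without any one of 8 of the 9 arrays, post-meiotic replicate 2 being the exception (0.16 to 0.28).

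In 47 pairs neither member had an extreme, and in 4 the retrogene had a trough beside a parent with neither extreme. Pairs with an extreme in only 1 member were commoner than pairs with opposite extremes. A retrogene peak beside a parent with neither extreme occurred in 15 pairs. Among them were Ntf-2r, a copy of a nuclear transport factor, with a peak of 0.92 beside Ntf-2 on the X, Slc25A46b, a mitochondrial carrier gene, with 0.50, and the proteasome copies Prosalpha3T and Prosalpha4T1. A parent trough beside a retrogene with neither extreme occurred in 18 pairs, among them Roc1a (-0.53), a ubiquitin ligase subunit, and Ran (-0.58), the GTPase of nuclear transport, both on the X. In 1 pair both members peaked (ODA-Dnal1 and CG10839) and in 1 both had troughs (Septin2 and Septin5).

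**Figure D4:**
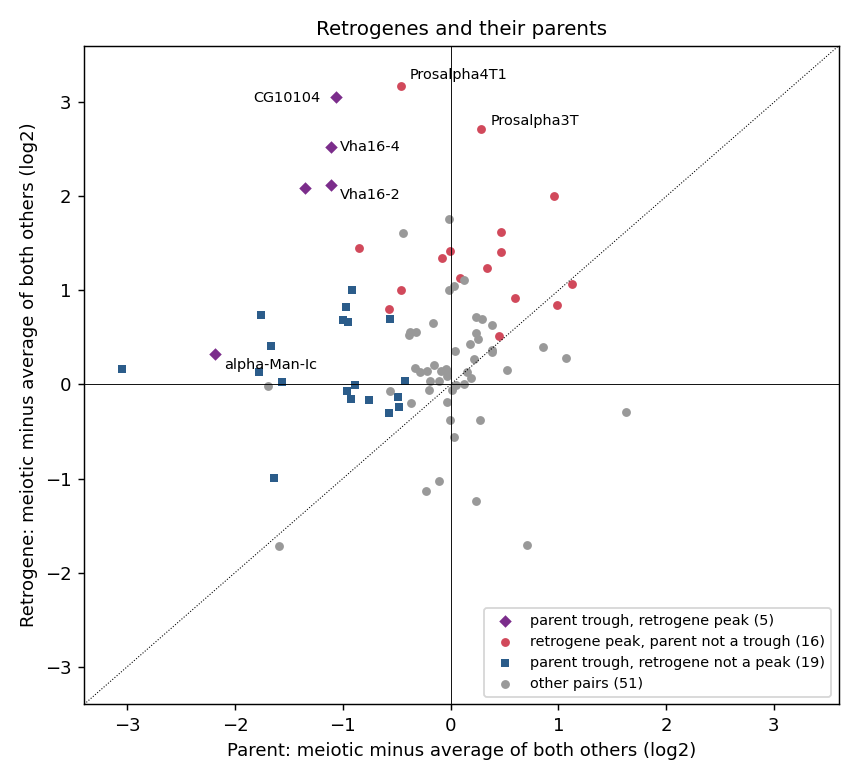
Contrast of meiosis with the average of mitosis and post-meiosis (log2 intensity) for the parent (horizontal axis) and the retrogene (vertical axis) of 91 pairs, with the line of equality dotted. Points lie mostly above the line, and the 5 pairs with a parent trough and a retrogene peak (diamonds) are at the upper left.

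Genes of spermatocyte function were high in meiosis, but many were not below that level in mitosis. Lists were counted with 1 probe set per gene, and a fit to 1 probe set per gene found 1286 peaks and 1227 troughs among 11982 genes. In that fit 4119 genes were higher and 3017 lower than the average of the outer regions. All 17 genes measured for the testis transcription programme, the testis TAFs and the testis Myb-type complex with their partners, were above the average of the outer regions (median 1.5, and 1.39 to 1.61 under the alternatives). All 17 were higher than in post-meiosis, but against mitosis 3 were higher, 9 lower and 5 did not pass. The bromodomain gene tbrd-2 was one of the 3 peaks, with 11.67, 11.62 and 11.77 on the mitotic arrays, 11.98, 12.05 and 11.93 on the meiotic and 5.95, 6.08 and 5.85 on the post-meiotic. The step from mitosis was 0.30 (adjusted p = 0.00889) and the one to post-meiosis 6.03, the arrays of the 3 regions being apart. The zinc finger gene topi and the homeobox gene vis had peaks of 0.42 and 0.31, which were lost without mitotic replicate 2 (0.33) for topi and without mitotic replicate 3 or meiotic replicate 1 (0.26 for each) for vis.

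Regulators of the meiotic divisions held 6 peaks and no trough among 14 genes, with a median contrast of 1.09. Against mitosis, 7 were higher, 2 lower and 5 did not pass. gwl (arm 3R), the Greatwall kinase of mitotic and meiotic entry, read 8.69, 8.52 and 8.68 on the mitotic arrays, 9.58, 9.61 and 9.50 on the meiotic and 4.78, 5.11 and 4.97 on the post-meiotic, a peak of 0.93 (adjusted p = 2.08e-06). Meiosis was the highest region on every array and post-meiosis by far the lowest. CycB3, a B-type cyclin, peaked by 0.53, Rca1, an inhibitor of the anaphase-promoting complex, by 0.43, and fzy, an activator of that complex, by 0.39. bol, the RNA-binding Boule, which is needed to translate the meiotic phosphatase twine, had another form of peak. It was 12.23, 12.14 and 12.08 on the mitotic arrays, 13.14, 13.18 and 13.18 on the meiotic and 12.60, 12.90 and 12.72 on the post-meiotic, so it stayed high late, and the size of 0.43 came from the step to post-meiosis. The X-linked rux, a cyclin-dependent kinase inhibitor, peaked by 0.42, and by 0.13, not past the threshold, with cyclic loess. fzy and bol have further probe sets with neither extreme.

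Of 11 genes of homologue pairing and cohesion, 8 were higher and 1 lower than the average (median 0.46). Against mitosis 3 were higher and 7 lower (median -0.78), and 10 were higher than in post-meiosis. Among all probe sets tested, 25.7% were higher and 21.2% lower than the average. Of these probe sets, 24.3% were higher and 26.3% lower than in mitosis, and 27.8% higher and 37.8% lower than in post-meiosis. Peaks were called in the condensin genes barr (0.35) and Cap-H2. Each of these calls was lost without any one of 4 arrays. For barr these were mitotic replicates 2 and 3 and meiotic replicates 1 and 2 (0.32 to 0.36), and for Cap-H2 mitotic replicates 1 and 2 and meiotic replicates 1 and 3 (0.23 to 0.25). Cytokinesis genes went both ways, with 5 higher, 5 lower and 5 not past among 15, beside the 25.7% and 21.2% above. Against mitosis 2 were higher and 10 lower, and against post-meiosis 10 were higher and 3 lower. tum, a part of the centralspindlin complex, peaked by 0.63 and fwd, a lipid kinase, by 0.49 (0.17 and not past with cyclic loess). The formin dia had a trough, with 6.42, 6.96 and 6.59 on the mitotic arrays, 5.11, 5.33 and 5.13 on the meiotic and 8.99, 8.47 and 8.51 on the post-meiotic. Septin2 and Septin1 had troughs of -1.43 and -0.58, and Septin1 has another probe set with neither extreme. The median contrast of this list was 0.12, or -0.06 with cyclic loess.

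Comet and cup genes are named for where their late messages lie in spermatid bundles. All 15 genes measured in this list were above the average of the outer regions, with a median of 0.72. The list also held ctp, the parent of the retrogene Cdlc2, which is not a comet or cup gene. Peaks were called in 7 (boly, hale, soti, c-cup, p-cup, r-cup and wa-cup), but in 2 with cyclic loess and in 9 with arrays centred on their medians. wa-cup was 10.23, 10.11 and 10.26 on the mitotic arrays, 11.80, 11.65 and 11.78 on the meiotic and 10.51, 11.13 and 10.78 on the post-meiotic, a peak of 0.94 with no overlap. c-cup peaked by 0.53. Of 22 axoneme and sperm tail genes 16 were higher, 1 lower and 5 not past (median 0.35). Against mitosis 20 were higher, whereas against post-meiosis 3 were higher and 12 lower (median -0.22). Peaks were called in Dhc98D, Dhc62B and betaTub85D, the last 2 of which were lost with cyclic loess (0.01 and 0.00). Of 8 sperm chromatin genes 7 were higher than the average (median 0.43) and 7 higher than in mitosis, but 3 were higher and 2 lower than in post-meiosis, with small peaks in Mst33A and Mst77F. The call of Mst33A was lost without meiotic replicate 1 (0.19) or post-meiotic replicate 3 (0.22), and that of Mst77F with cyclic loess (0.00) and without any one of the meiotic replicates or post-meiotic replicates 2 and 3 (0.18 to 0.23).

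The genes of the Y-linked fertility list, some of them giant genes transcribed in spermatocytes, were all higher in meiosis than in mitosis, 7 of 7. None of the 7 had its extreme there. In the axonemal dynein gene kl-3 the arrays read 4.87, 4.60 and 4.79 on the mitotic arrays, 6.84, 7.07 and 6.61 on the meiotic and 7.47, 7.98 and 6.91 on the post-meiotic. Levels rose along the testis, with some overlap of the later regions. Against post-meiosis 5 of the 7 were lower and 2 did not pass. Over all 9 Y-linked probe sets, every one was above the average of the outer regions and 2 were peaks, both of kl-2, whose brightest probe set was not.

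Of the 15 stem cell and spermatogonial genes measured, 10 were lower in meiosis than in mitosis and 13 were higher than in post-meiosis, beside 26.3% and 27.8% of all probe sets, and the median contrast of -0.01 changed sign between settings. The germline marker vas was under 6 in every region (5.76, 5.35 and 5.04), while bam, which starts the differentiation of spermatogonia, stood at 9.49, 7.23 and 4.63. Peaks were found in esg, a Snail-type zinc finger gene of stem cell upkeep, and in stai, the stathmin gene. esg was 7.48, 7.75 and 7.51 on the mitotic arrays, 8.31, 8.46 and 8.35 on the meiotic and 4.61, 5.20 and 4.89 on the post-meiotic, a peak of 0.79 (adjusted p = 0.000177) with all regions apart. stai peaked by 0.57. Stat92E, the transcription factor of the signal from the hub, had a trough, with 8.77, 8.95 and 8.71, then 7.09, 7.29 and 7.27, then 8.64, 8.35 and 8.44. Spermatocyte RNA-binding genes gave 2 peaks and 1 trough among 9, with 4 higher and 2 lower (median 0.15, and -0.16 with cyclic loess). Fmr1, the fragile X protein gene, peaked by 0.99 in one of its 2 probe sets, eIF4E3 by little (0.00 with cyclic loess), and heph, the polypyrimidine tract binding protein gene, had a trough of -1.40.

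**Figure D5:**
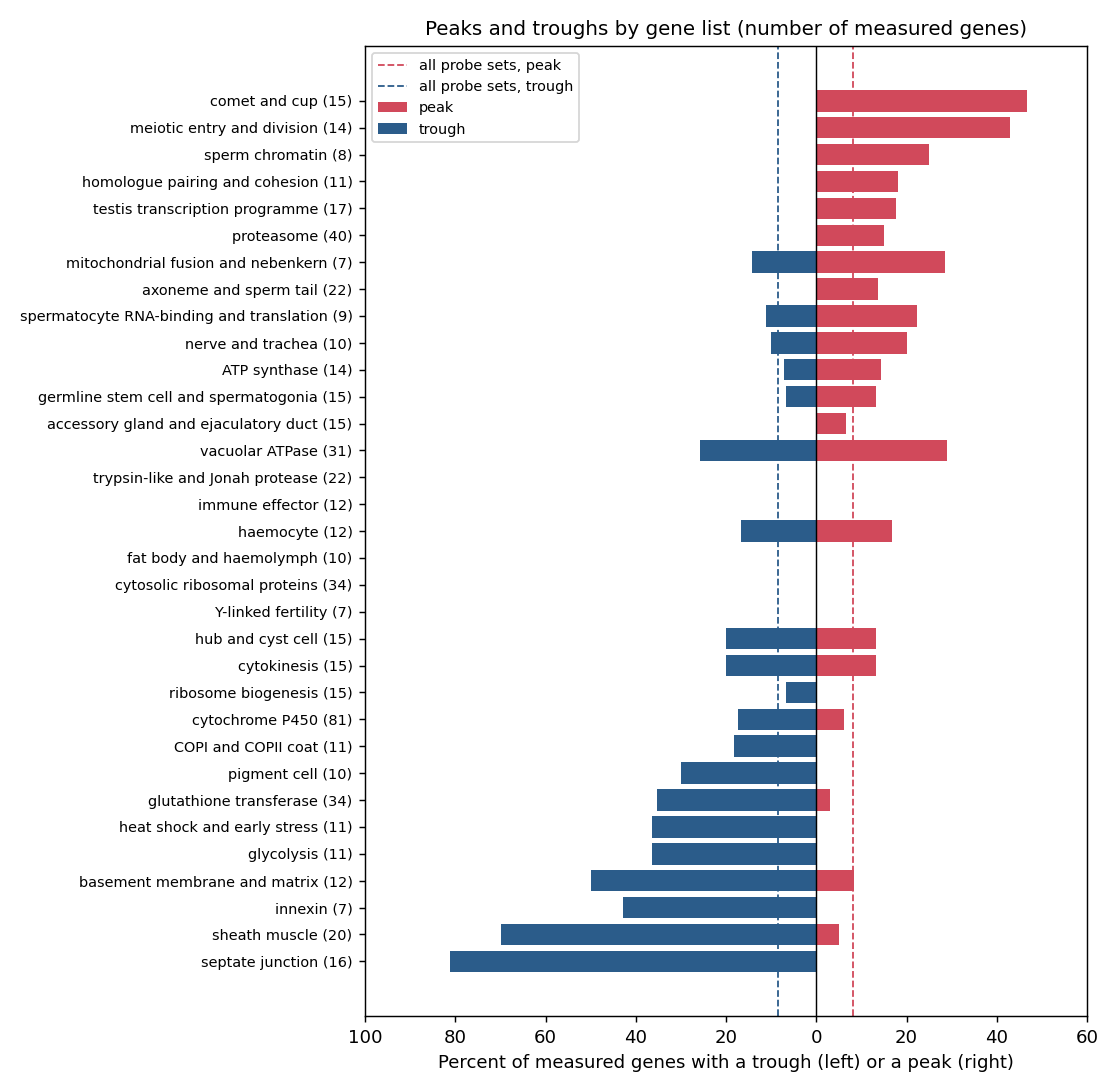
Percent of the measured genes of each list or family with a trough (left, blue) or a peak (right, red) in meiosis, 1 probe set per gene, with the number of genes in brackets. The dashed lines are the shares among all probe sets, 8.46% and 8.19%. A fit with 1 probe set per gene gave 1227 troughs and 1286 peaks among 11982 genes. Meiotic and spermatid lists stand at the top and septate junction, sheath muscle, innexin and basement membrane genes at the bottom.

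The deepest troughs were those of CG33281 and CG16898, which have no name. CG33281 (arm 2L) read 9.95, 9.95 and 9.82 on the mitotic arrays, 5.90, 5.88 and 5.50 on the meiotic and 11.34, 11.22 and 11.45 on the post-meiotic, at least 17.8-fold down from either side in the region means. CG16898 (arm 2R) was 15.8-fold below mitosis and 64.5-fold below post-meiosis. The amino acid transporter gene path (arm 3L) read 9.74, 10.07 and 9.85, then 6.59, 6.89 and 6.80, then 10.21, 9.80 and 9.96. The outer regions overlapped, with the meiotic arrays 8.73-fold down (adjusted p = 1.98e-09 and 8.6e-11).

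MtnA (arm 3R), a metallothionein that binds copper and other metals, was bright everywhere, with 13.42, 13.48 and 13.53 on the mitotic arrays, 10.52, 10.42 and 10.74 on the meiotic and 14.30, 14.30 and 14.21 on the post-meiotic. It was 7.54-fold below mitosis and 13.1-fold below post-meiosis. sty, the Sprouty antagonist of receptor tyrosine kinases, had a trough of -2.90, the growth-blocking peptide gene Gbp2 one of -2.79, and the Na,K-ATPase beta subunit gene nrv1 one of -2.66. rdx, a Cul3 adaptor, had a trough of -2.54, with another probe set at a contrast of 0.56 that was a peak. CG17549, CG43897, CG13315, Swim, CG31300 and Erasp, not described further here, had sizes from -3.13 to -2.78. On the X, next to Inx2, the deepest were the odorant-binding protein gene Obp18a (-2.41), the ubiquitin-conjugating enzyme gene ben (-2.34) and nocte (-2.23). Under 329 recomputed values for the 21 troughs named by size, none lost its call or turned. As with the peaks, they were picked as large and free of overlap in the same arrays, so this was not an independent check.

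Junction genes were the list with the largest share of troughs. Septate junctions seal epithelia and also close cyst cells around spermatocytes and spermatids. Of 16 genes, 13 had a trough and none a peak, 15 were below the average of the outer regions and all 16 were below mitosis, with a median contrast of -1.27 (-1.31 to -1.16 under the alternatives). Lac, an immunoglobulin-type adhesion gene, was 8.43, 8.45 and 8.44 on the mitotic arrays, 7.34, 7.06 and 7.34 on the meiotic and 11.54, 11.20 and 11.32 on the post-meiotic. Regions were apart and meiosis was lowest. The band 4.1 gene cora had a trough of -1.11, the claudin genes sinu, pck and kune troughs of -0.88, -0.76 and -0.72, and dlg1, a scaffold, one of -1.06. Summed on the linear scale, the list ran from 9663 to 10355 in mitosis, 5536 to 5910 in meiosis and 13291 to 16889 in post-meiosis. The troughs numbered 11 with centred arrays, and those of Nrx-IV, Tsf2 and bou were the less stable ones.

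Gap junction genes behaved alike in part. Of 7 innexins, 3 had a trough and none a peak, with 5 lower and 2 higher and a median of -0.96. Inx2 on the X, which serves soma and germline contacts, read 8.20, 8.43 and 8.31, then 5.23, 5.65 and 5.69, then 9.59, 8.66 and 8.84, a trough of -2.79. ogre on the X had one of -1.54 and Inx3 one of -0.56. The germline innexin zpg instead fell by 2.89 from mitosis and was 0.97 above post-meiosis.

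Muscle genes, marking the sheath, had 14 troughs and 1 peak among 20, with 15 lower, 2 higher and 3 not past and a median contrast of -1.81 (-2.0 to -1.70). Mlc1, a myosin light chain gene, was 8.50, 8.70 and 8.05 on the mitotic arrays, 6.04, 5.89 and 6.06 on the meiotic and 10.78, 10.86 and 11.07 on the post-meiotic, with no overlap. The thick filament gene Mf, the LIM protein gene Mlp60A and the Z-disc gene Zasp52 had troughs of -2.22, -1.82 and -1.72. Other members went against these. Act87E had mean levels of 10.19, 11.74 and 12.95 and Msp300 9.52, 11.03 and 11.67, both rising along the testis, and the titin gene sls had a peak in its brightest probe set (0.35, and 0.00 with cyclic loess). Because these bright genes weigh most, the summed level was 4522 to 5423 in mitosis, 7394 to 7956 in meiosis and 20881 to 22238 in post-meiosis. The cells of the meiotic sample had come out of the sheath under pressure, and the part of that step in this and the other somatic results was not tested.

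Basement membrane genes had 6 troughs and 1 peak among 12, with 8 lower and 2 higher and a median of -1.08. SPARC, a collagen-binding protein gene, read 9.07, 9.14 and 9.25 on the mitotic arrays, 6.76, 6.34 and 6.24 on the meiotic and 9.32, 9.27 and 9.52 on the post-meiotic, a trough of -2.71. The laminin genes LanB2 and LanB1 had troughs of -1.30 and -1.15, the perlecan gene trol one of -1.02, and the collagen IV genes Col4a1 and vkg of -0.89 and -0.54. The multiplexin collagen gene Mp instead peaked by 0.94, in one of its 2 probe sets. The summed level was 2944 to 3012 in mitosis, 1681 to 1840 in meiosis and 3247 to 3535 in post-meiosis.

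Other somatic lists had medians nearer to 0. Of 15 hub and cyst cell genes, 2 had a peak (lbe, and CadN, at 0.07 and not past with cyclic loess) and 3 a trough (bowl, ci, a call lost with centring, and Gli, which the septate junction list also holds), with a median of -0.19. The cyst cell transcription factor gene tj had mean levels of 6.35, 6.06 and 6.15 and no extreme, and the summed level of the list was 7810 to 8431 in the mitotic samples, 7163 to 7698 in the meiotic and 9679 to 10875 in the post-meiotic ones. Of 10 pigment cell genes, 3 had a trough, with a median of -0.17, and 4 of the 10 were under 6 in every region. Haemocyte genes had 2 peaks (gcm with 1.22, and srp, at 0.00 with cyclic loess) and 2 troughs (crq with -1.27, and Nplp2, a call lost in several fits) among 12, median -0.16, although the haemocyte genes Hml and NimC1 had neither. Nerve and tracheal genes had 2 peaks (brp with 1.11 and verm with 0.53) and 1 trough (elav) among 10, median -0.13. Of 15 accessory gland genes, 10 were under 6 in every region, and the only peak was Acp36DE with 0.43. In this list 1 was higher and 3 lower than the average. EbpIII had mean levels of 7.94, 8.37 and 11.78 in the mitotic, meiotic and post-meiotic samples. Summed levels, in the same order, were 1117 to 1201, 1247 to 1386 and 4094 to 4951. Fat body genes had no extreme among 10, with 1 higher, 2 lower and a median of -0.04. Tsf1 had mean levels of 7.48, 7.46 and 11.63, and the summed level was 1363 to 1585, 2177 to 2416 and 5867 to 6199.

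Peaks and troughs were spread unevenly over the chromosomes, which the study examined for lower X-linked expression in meiosis. On the X, 172 of 2188 probe sets (7.86%) had a peak and 280 (12.8%) a trough, and on the autosomes 1166 of 11352 (10.3%) and 1077 (9.49%). Arm 2L had the largest share of peaks among the long arms, 298 of 2463 (12.1%), and the small chromosome 4 had troughs in 17 of 82 (20.7%). Among probe sets with a mean of at least 6, 7 or 8, troughs made up 14.8%, 14.2% and 10.7% on the X and 11.8%, 11.2% and 8.35% on the autosomes. Peaks made up 10.6%, 12.5% and 13.4% on the X and 13.1%, 14.7% and 15.7% on the autosomes. The order of X and autosomes was thus the same at each of the 3 minima, and these shares were described and not tested.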

How the data were processed

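The authors deposited, for each of the 9 arrays, log2 intensities computed by RMA, which subtracts background and then quantile-normalizes the arrays together. The version of RMA is not given in the sources used here. Scanner files were not used. Array medians were 6.43 to 6.44 in mitosis, 6.36 to 6.39 in meiosis and 6.48 to 6.54 in post-meiosis, and arrays of a region correlated at 0.993 or more. Quantile normalization makes a difference relative to the other transcripts. The number of arrays limits the precision.

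All 9 arrays were fitted at once with limma 3.58.1 (lmFit and eBayes, two-sided) in R 4.3.3, without covariates, after a test on simulated data, with Benjamini-Hochberg adjustment across 18769 probe sets. Tables and figures were made with Python 3.11.15, pandas 2.3.3, numpy 2.4.6 and matplotlib 3.10.9. Genes and chromosome arms come from the platform annotation, updated through RefSeq (13544 gene IDs matched, 11982 genes). Lists used the brightest probe set of each gene, and 85 listed genes matched no probe set with a single symbol and are not described in their lists.

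Named were, in each direction, the 12 largest extremes with a name, the 6 largest with a CG number and the 4 largest on the X, up to 4 genes per list, extremes in lists that lead a paragraph, and retrogene pairs with opposite extremes. Extremes named by size had to have 1 gene symbol and no overlap of the 3 meiotic arrays with the other 6, so their lack of overlap is not a result. The members and the 29 lists were chosen with earlier results of these data known, and 4 families were added after their values were seen. Other named genes and pairs, and probe sets beside the brightest, were picked after their values were seen. Promoter and protein sequences were not analysed here. Alternatives were centring, cyclic loess, an intensity minimum of 6, a size of at least 1, 1 probe set per gene, no cross-hybridizing probe sets, an intensity trend, the replicate number as a block, and each array left out in turn.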

Additional observations from a re-analysis of the deposited data

How the results depend on the processing

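Counts of peaks and troughs stayed within 1.5 times under every refit at the same threshold. They were 2048 and 1292 after median centring of the arrays, 1497 and 1704 after cyclic loess, and 1358 to 1582 and 1442 to 1655 when 1 array was left out. Centring moved the median contrast of all probe sets from -0.03 to 0.08 and the share of peaks among the extremes from 49.2% to 61.3%, and the share higher among the probe sets past the contrast from 54.8% to 66.1%. Cyclic loess kept 1169 of the peaks (76.0%) and 1333 of the troughs (84.0%). A size of at least 1 on the log2 scale left 1218 higher, 1195 lower, 301 peaks and 533 troughs. Parents of retrogenes with a peak numbered 3 with centring and 2 without post-meiotic replicate 1, against 1. The causes were not tested. With the replicate number as a block there were 1562 peaks and 1600 troughs. Deviations of same-numbered arrays correlated at 0.36 for replicate 1 of mitosis and meiosis, above every differently numbered pair between regions (at most 0.15), and at -0.09 to 0.09 for the others, so not every pair deviated together and the numbers were not taken as a pairing. Of the values computed for named genes under alternatives, 3868 kept their side of the threshold, 153 lost it, 5 gained it and none reversed. Dim probe sets limit the lists of accessory gland, pigment cell and P450 genes. Replicates measure the spread between dissections of 1 strain.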

Other observations

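Over 5 metabolic and housekeeping lists, 8 of 85 genes had a trough and 2 a peak, beside 8.46% and 8.19% of all probe sets. With 1 probe set per gene, as in the lists, 1227 of 11982 genes had a trough and 1286 a peak. All 11 glycolysis genes were lower in meiosis than in post-meiosis, as were 37.8% of all probe sets, and 5 of them were higher than in mitosis and 4 lower. In this list 4 had a trough and the median contrast was -0.32. Hex-A (X), a hexokinase gene, read 8.61, 8.65 and 8.52 on the mitotic arrays, 7.11, 7.20 and 7.15 on the meiotic and 10.62, 10.59 and 10.48 on the post-meiotic, and Gapdh1 had a trough of -1.15. The array's control probe sets along the GAPDH message gave a 3′ minus 5′ difference of 0.75 to 0.95 in meiosis, 1.09 to 1.23 in mitosis and 1.42 to 1.64 in post-meiosis, and the actin ones 0.96 to 1.36, 0.93 to 1.13 and 1.21 to 1.39. The part of RNA quality in these results was not tested. Of 14 mitochondrial ATP synthase genes, 11 were lower in meiosis than in mitosis and 13 higher than in post-meiosis, beside 26.3% and 27.8% of all probe sets. The extremes were peaks of ATPsynCF6L (1.17) and ATPsynGL (0.54) and a trough of ATPsynbeta (-0.35), which was lost with centring (-0.20) and without meiotic replicate 1, meiotic replicate 2 or post-meiotic replicate 1 (-0.33 to -0.20). The median contrast was 0.25, and -0.01 with cyclic loess. Cytosolic ribosomal protein genes had no extreme among 34, with 32 lower than in mitosis and 23 higher than in post-meiosis (median contrast -0.50). Of 15 ribosome biogenesis genes 14 were lower than in mitosis, and Non1 alone had a trough (median contrast -0.39). COPI and COPII coat genes had 2 troughs among 11, in Sec16 (-1.67) and alphaCOP (median contrast -0.24).

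Detoxification genes had more troughs than peaks. Among all probe sets tested, 8.46% had a trough and 8.19% a peak, and 21.2% were lower and 25.7% higher than the average. Of 81 cytochrome P450 genes, 14 had a trough and 5 a peak, 34 were lower and 11 higher than the average of the outer regions (median -0.12), and 30 were under 6 in every region. Cyp4p1 read 8.42, 8.53 and 8.34 on the mitotic arrays, 6.84, 6.35 and 6.65 on the meiotic and 10.56, 10.37 and 10.66 on the post-meiotic, and Cyp6d5 had a trough of -1.77, while Cyp309a2 peaked by 0.84. Of 34 glutathione transferase genes, 12 had a trough and 1 a peak (median -0.39), with GstE12 at -1.50 and GstD1 at -0.93. Heat shock and early stress genes had 4 troughs among 11, led by puc (-1.95), a phosphatase gene that restrains JNK signalling, and kay (-1.13), the Fos gene. In this list 4 were higher and 4 lower than the average (median contrast -0.01). Hsp68 and Hsp26 were above the average by 1.67 and 1.41, without a peak. The summed level was 36808 to 39085 in mitosis, 27291 to 29489 in meiosis and 9698 to 10204 in post-meiosis. Immune effector genes had no extreme among 12 (5 lower, median -0.15), nor had trypsin-like and Jonah protease genes among 22 (median -0.11).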
